A study of Mus musculus with 6 samples.

Results

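Th17 cells are the CD4 T helper cells that make IL-17, and the genes followed here are those of their lineage program together with the neighbouring genes Tmem176a and Tmem176b. The nuclear receptor RORalpha (Rora) is among the factors that drive the program, the receptor chain encoded by Il23r lets the cells respond to IL-23, and the ligand-activated factor encoded by Ahr supports IL-22 production. Il17a, Il17f and Il22 encode the cytokines the program ends in. Tmem176a and Tmem176b encode membrane proteins related to CD20 that act as intracellular cation channels and are abundant in dendritic cells and in lymphocytes that make IL-17. The members were taken by gene symbol, 8 of the 23183 symbols in the count files, and all 8 were found.

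Expression was measured by RNA sequencing of wild-type C57BL/6N T cells taken through Th9 polarisation, the culture that yields IL-9-producing helper cells. Naive CD4 T cells enriched from spleen were activated for 3 days with anti-CD3e bound to the plate and anti-CD28 in solution (each 1 µg/ml). The medium also held TGF-beta1 at 2 ng/ml, IL-4 at 10 ng/ml and an antibody to IFN-gamma at 10 µg/ml. There were 3 control libraries without SPC (sphingosylphosphorylcholine, a lysosphingolipid) and 3 with SPC at 30 µM. The series text gives 3 independent experiments and the titles number the libraries 1 to 3 in each group. The labels list no IL-6, IL-23 or IL-1 among the additions, so the culture was not one for Th17 cells. Each edgeR p-value sets the difference between the groups against the spread between these libraries. In fits blocked on the replicate number, it is the spread left once the numbers are accounted for.

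The libraries held between 22002050 and 33049997 counts, and levels are given as CPM, counts scaled to a common library size with TMM factors. Of 12226 genes with enough counts to be tested, 59 (0.483%) had an adjusted p under 0.05 in the edgeR quasi-likelihood test of SPC against control, 40 of them (0.327%) higher and 19 (0.155%) lower. The numbers paired the libraries across groups, and a fit blocked on the replicate number called 866 genes (7.08%), 491 higher (4.02%) and 375 lower (3.07%). The CD4 T cell genes Cd3d, Cd3e, Cd3g, Cd4, Cd2, Cd5 and Cd28 summed to 1250 to 1280 CPM in control and 1230 to 1340 CPM in SPC libraries. None of the 7 was called, and 2 were with the block: Cd2 averaged 228.5 and 168.9 CPM in control and SPC libraries (log2 fold change -0.44, edgeR adjusted p = 0.0598, with the block 0.00144) and Cd5 209.8 and 268.5 CPM (0.36, edgeR adjusted p = 0.0597, with the block 0.00157). CD8 T cell markers summed to at most 2.43 CPM. Gamma-delta T cell markers, from a source of IL-17 that a naive CD4 T cell preparation can carry over, summed to at most 0.261 CPM with 4 of 5 markers in the files. NKT or MAIT cell markers summed to at most 0.0995 CPM. In bulk RNA, more cells of a kind and more RNA per cell cannot be told apart.

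Of the 8 members 5 could be tested, and 2 rose with SPC, Rora and Tmem176a, beside 0.327% of all tested genes that were called higher. With the replicate block 3 were called, all higher (Rora, Tmem176a and Tmem176b), beside 4.02% of all tested genes. Ahr and Il17f were not called by either test, and Il17a, Il22 and Il23r had too few counts. In 4 of the 5 tested members (Rora, Ahr, Tmem176a and Tmem176b) every SPC library stood above every control library, which held for 8.67% of all tested genes. No tested member had every SPC library below every control library, as 7.8% of all tested genes did. The members were chosen with earlier results of these data known, so these shares describe them and are no test of the set.

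**Figure D1:**
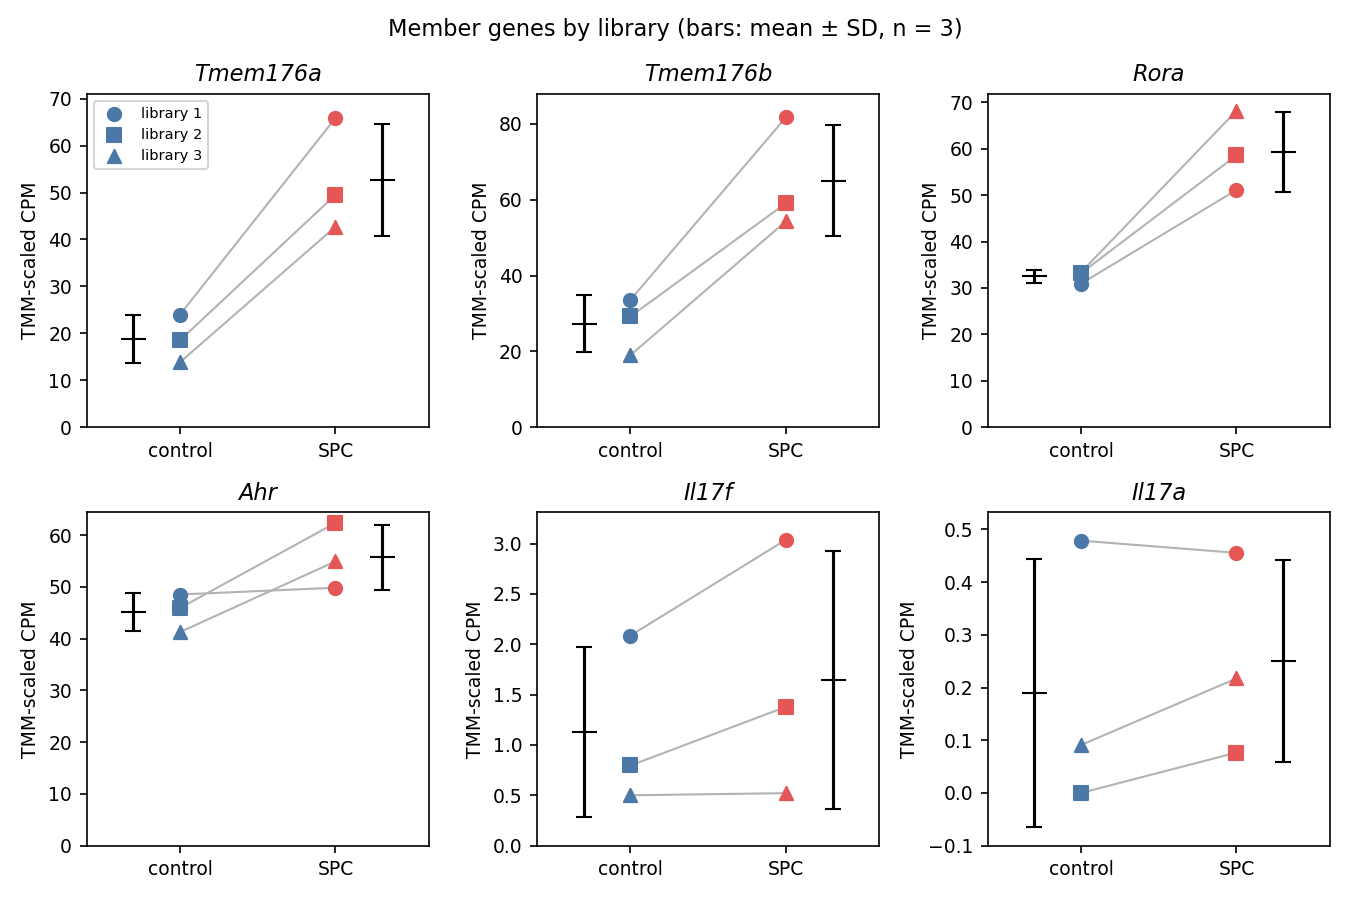
TMM-scaled CPM (vertical axes) of 6 members in the 3 control and 3 SPC libraries, with grey lines between libraries of the same number and black bars for mean ± SD. The groups are apart for Tmem176a, Tmem176b, Rora and Ahr and overlap for Il17f and Il17a.

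Tmem176a and Tmem176b lie head to head on chromosome 6. In mm10 coordinates Tmem176a spans chr6:48840919-48847071 on the plus strand and Tmem176b chr6:48833818-48841496 on the minus strand (GENCODE M21, introns included). RefSeq places their closest upstream starts 109 bases apart, at 48841483 for Tmem176a and 48841374 for Tmem176b. The 108 bases between these starts (chr6:48841375-48841482, plus strand, RefSeq, GRCm38.p6) are shown because transcripts from these starts are read away from this stretch. Both genes were also higher with SPC in every pair of libraries. By the GENCODE spans above the genes overlap, and the stretch lies inside both, so transcripts with starts farther out can run through it. No base is in capitals, which mark the ROR motif AGGTCA on either strand in all printed sequences.
Tmem176b-Tmem176a interval: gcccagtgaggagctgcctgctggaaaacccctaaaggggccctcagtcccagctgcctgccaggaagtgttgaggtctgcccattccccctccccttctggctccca
Its GC content was 63.9%, against a median of 52.7% over all RefSeq promoter windows, which take 250 bases before and 50 from the start on. AGGTCA was in none of the 5 windows of the Tmem176 genes (2 of Tmem176a and 3 of Tmem176b) and in 16.3% of all 32851 windows. The AHR core GCGTG (32.4% of all windows) and the AP-1 motif TGANTCA (7.81%, a motif that reads the same on both strands) were in none of the 5 either. A missing match says only that these letters are not in these windows.

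Tmem176a stood at 24.0, 18.5 and 13.8 CPM in control libraries 1 to 3 and at 65.9, 49.5 and 42.7 CPM in SPC libraries 1 to 3. The lowest SPC library was above the highest control library, and library 1 was the highest of its group in both groups. Its log2 fold change was 1.49 ± 0.21 (SE, 2.80-fold, edgeR adjusted p = 0.0339, and 2.29e-06 with the block). The rise was seen in 3 of 3 same-numbered pairs, by 1.46, 1.42 and 1.63 on the log2 scale. Its direction held in every left-out fit, but it no longer passed without control library 2 (adjusted p = 0.171), control library 3 (0.0519), SPC library 1 (0.0509), SPC library 2 (0.150) or both libraries numbered 2 (0.647), and also with no filter on low counts (0.0627).

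Tmem176b stood at 33.6, 29.2 and 19.0 CPM in control and 81.7, 59.1 and 54.3 CPM in SPC libraries. The groups did not overlap here either, and the libraries of each group stood in the same order as for Tmem176a. The log2 fold change was 1.25 ± 0.22 (2.38-fold, edgeR adjusted p = 0.0514), just outside the threshold, and the gene was called with the block (1.26 ± 0.09, adjusted p = 2.49e-05). Same-numbered pairs differed by 1.28, 1.02 and 1.52 on the log2 scale. By size of log2 fold change, from the highest, Tmem176a was at rank 33 and Tmem176b at rank 59 of 12226 tested genes.

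Tmem176a was the lesser of the pair in counts in all 6 libraries. It gave 41.7%, 38.8% and 42.1% of the pair's counts in control and 44.6%, 45.6% and 44.0% in SPC libraries. The log2 ratio of Tmem176a to Tmem176b counts was -0.535 ± 0.108 (SD, n = 3) in control and -0.304 ± 0.0462 in SPC libraries, a difference of 0.231 (exact permutation p = 0.10, two-sided, the smallest that 3 against 3 allows). The groups did not overlap in this ratio, and the test could not reach 0.05. On opposite strands 81 exonic bases are shared by both genes, 2.13% of the exonic bases of Tmem176a and 3.42% of those of Tmem176b. Whether the counting used strand is not given in the sources used here, so reads from those bases cannot be assigned to either gene.

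**Figure D2:**
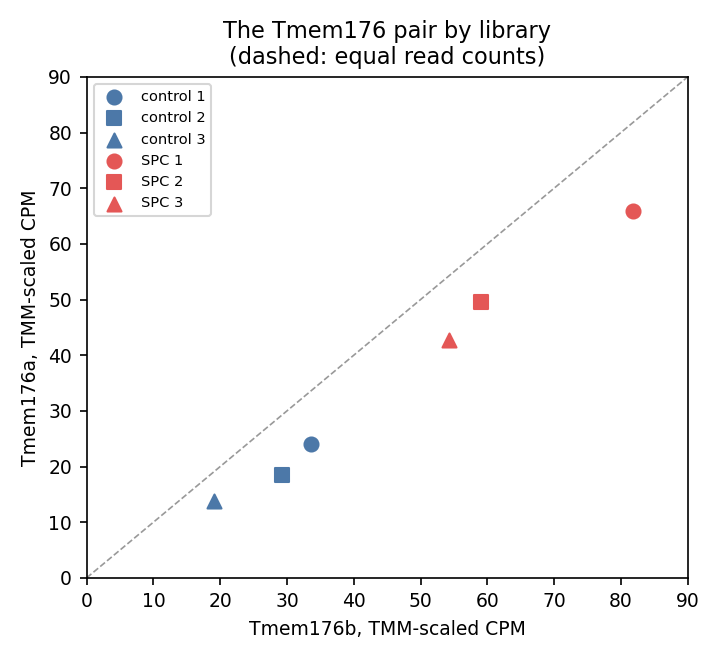
Tmem176a against Tmem176b, both as TMM-scaled CPM, with a symbol for each library number, blue for control and red for SPC, and a dashed line of equal counts. All 6 libraries lie below the line, and the SPC libraries lie farther out than the control libraries, from 42.7 to 65.9 CPM of Tmem176a.

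Within 500 kb of the pair on each side, 21 other genes were tested, and none was called. With the block 2 were, beside 7.08% of all tested genes. Log2 fold changes of the 21 lay between -0.744 and 0.432 with a median of 0.0101. Near the pair lies the Gimap cluster of GTPase genes of lymphocytes, of which Gimap7 had 5.45 ± 2.01 and 3.23 ± 0.148 CPM in control and SPC libraries (log2 fold change -0.74 ± 0.25, edgeR adjusted p = 0.315, with the block 0.0390). Gimap4 had 80.6 ± 16.1 and 66.5 ± 13.1 CPM (-0.28 ± 0.17, edgeR adjusted p = 0.661, with the block 0.0127). Sspo, which encodes the secreted SCO-spondin, had 2.39 ± 0.201 and 3.21 ± 0.797 CPM (0.43 ± 0.22, edgeR adjusted p = 0.577).

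**Figure D3:**
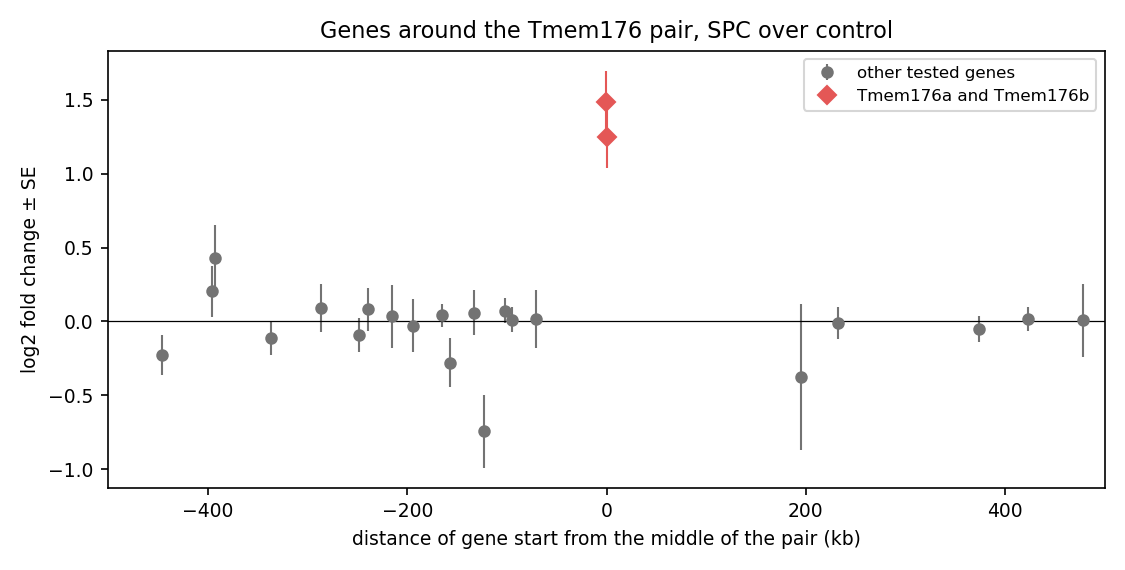
Log2 fold change of SPC over control with its SE (vertical axis) for tested genes by the distance of their start from the middle of the Tmem176 pair in kb (horizontal axis). The pair stands at 1.49 and 1.25, while the 21 other genes lie between -0.744 and 0.432.

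Other genes of the CD20-like MS4A family were low. Of 14 in the files 3 were tested and none was called, also with the block. Ms4a6b had 3.74 ± 0.626 and 3.74 ± 0.874 CPM, Ms4a4b 1.42 ± 0.311 and 1.61 ± 0.286 CPM, and Ms4a6c 0.738 ± 0.221 and 1.10 ± 0.210 CPM in control and SPC libraries. Ms4a1, the B cell gene for CD20 itself, had 0 counts in all libraries. Dendritic cells also express the Tmem176 genes, and the 8 dendritic cell markers, of which 2 were tested, summed to 2.63 to 3.68 CPM in control and 4.16 to 6.34 CPM in SPC libraries. The groups did not overlap in this sum. Of the 8 markers, Clec9a, Clec10a and Cd209a had 0 counts in all 6 libraries and the other 5 had at least 1. Zbtb46 gave 118, 109 and 133 counts in SPC and 71, 97 and 65 in control libraries and made up most of the sum. Zbtb46 was higher in 3 of 3 pairs (0.65 ± 0.22, edgeR adjusted p = 0.331, with the block 0.0427). Flt3 averaged 0.350 CPM in control and 0.442 CPM in SPC libraries (edgeR adjusted p = 0.889, with the block 0.631). Xcr1 had 1, 1 and 1 counts in control and 9, 2 and 0 in SPC libraries, Itgax 1, 0 and 0 against 1, 1 and 2, and Siglech 1 count in SPC library 2. The part of these markers in the Tmem176 result was not tested.

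Rora spans chr9:68653786-69388246 on the plus strand. Its level was 30.9, 33.2 and 33.4 CPM in control and 51.1, 58.6 and 68.2 CPM in SPC libraries. The control libraries were close together, and each SPC library was above all of them. Rora rose by 0.87 ± 0.11 on the log2 scale (1.82-fold, edgeR adjusted p = 0.0200, and 0.000101 with the block), higher in 3 of 3 pairs by 0.73, 0.82 and 1.03. By p it ranked 17 of 12226 tested genes. The log2 fold change stayed between 0.75 and 0.96 when a library or number was left out, but the gene did not pass without control library 2 (adjusted p = 0.116), SPC library 2 (0.126) or both libraries numbered 2 (0.492). An opposite-strand gene, Gm15511, shares 0.627% of its exonic bases.

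Rorb, a related receptor gene, had 10 counts in all 6 libraries together. Among 14 tested ROR and clock genes none was called. With the block 1 was higher and 1 lower, beside 4.02% and 3.07% of all tested genes. The lower gene was Nfil3, which is given below with the Th17 differentiation factors. The median log2 fold change was -0.0208, against 0.00193 over all tested genes. Npas2, a clock factor gene, had 16.3 ± 2.33 and 22.1 ± 1.27 CPM (0.43 ± 0.12, edgeR adjusted p = 0.191, with the block 0.00981). Nr1d2, which encodes the clock repressor REV-ERBbeta, had 14.7 ± 1.33 and 18.2 ± 0.469 CPM (0.31 ± 0.10, edgeR adjusted p = 0.275, with the block 0.0591).

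Ahr (chr12:35497974-35535038, minus strand) stood at 48.5, 45.9 and 41.3 CPM in control and 49.8, 62.4 and 54.9 CPM in SPC libraries. The groups did not overlap, but the highest control and lowest SPC library, both numbered 1, differed by only 0.04 on the log2 scale. The log2 fold change was 0.30 ± 0.10 with a 95% interval from 0.07 to 0.53 (edgeR adjusted p = 0.332, and 0.0630 with the block), so Ahr was not called. The pairs numbered 2 and 3 differed by 0.44 and 0.41. An opposite-strand gene, Gm48236, shares 2.06% of its exonic bases.

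AHR works with the partner encoded by Arnt and induces xenobiotic enzymes such as Cyp1a1. None of the 12 tested genes of its pathway was called, and 1 was higher with the block, beside 4.02% of all tested genes. Their median log2 fold change was -0.0457. Gpr15, a gut-homing receptor gene, was the member called with the block, at 2.71 ± 1.01 and 4.33 ± 1.20 CPM (0.67 ± 0.30, edgeR adjusted p = 0.489, with the block 0.0215). Arnt had 85.2 ± 4.57 and 74.9 ± 8.64 CPM (-0.19 ± 0.10, edgeR adjusted p = 0.577), and Nfe2l2, which encodes the oxidative stress factor NRF2, 40.2 ± 0.991 and 35.5 ± 4.37 CPM (-0.18 ± 0.10, edgeR adjusted p = 0.616). Cyp1a1 (named after its values were seen) had 1.26 ± 0.898 and 1.35 ± 0.612 CPM.

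Il17a and Il17f lie 42.6 kb apart on chromosome 1, Il17a at chr1:20730905-20734496 on the plus strand and Il17f at chr1:20777146-20790617 on the minus strand. The 250 bases before their RefSeq starts are shown because both hold the letters AGGTCA or their reverse complement, in capitals, while both transcripts were at most 3.04 CPM in any library. They are chr1:20730655-20730904 and chr1:20784271-20784520 (GRCm38.p6), each read on the strand of its gene.
Il17a: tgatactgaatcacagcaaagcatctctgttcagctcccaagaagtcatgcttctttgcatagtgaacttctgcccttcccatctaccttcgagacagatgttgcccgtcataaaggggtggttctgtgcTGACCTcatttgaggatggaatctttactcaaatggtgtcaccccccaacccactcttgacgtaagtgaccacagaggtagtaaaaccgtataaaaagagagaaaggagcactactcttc
Il17f: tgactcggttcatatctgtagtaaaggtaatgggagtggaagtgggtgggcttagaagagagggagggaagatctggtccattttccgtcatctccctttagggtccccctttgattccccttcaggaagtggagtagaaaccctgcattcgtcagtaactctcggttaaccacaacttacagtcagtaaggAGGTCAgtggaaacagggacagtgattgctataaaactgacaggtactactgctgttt
Of the 7 members with a RefSeq window, Il17a, Il17f and Il23r held AGGTCA on at least 1 strand, and Rora, Il22, Tmem176a and Tmem176b did not. Of the other motifs, GCGTG was in the window of Rora and TGANTCA in that of Il17a. These matches are descriptions of the letters, not of binding.

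Il17f had 61, 24 and 11 counts in control and 100, 36 and 12 in SPC libraries, or 2.09, 0.796 and 0.500 CPM and 3.04, 1.38 and 0.521 CPM. The groups overlapped, and library 1 was the highest of each. Its log2 fold change was 0.56 ± 0.64 with a 95% interval from -0.89 to 2.00 (edgeR adjusted p = 0.853, and 0.217 with the block). Same-numbered pairs differed by 0.54, 0.79 and 0.06 on the log2 scale, higher in 3 of 3. Within groups Il17f varied more than most genes, with a biological coefficient of variation of 53.1%, against a median of 10.3% over all tested genes. Without SPC library 1 the log2 fold change was -0.26.

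Il17a had 14, 0 and 2 counts in control and 15, 2 and 5 in SPC libraries. Library 1 again held most of the counts in both groups. Over each group there were 16 counts (95% Poisson interval 9.15 to 26.0) and 22 counts (13.8 to 33.3), or 0.197 and 0.268 CPM. The ratio of SPC to control was 1.36 with an exact interval from 0.684 to 2.78, which covers counting error only, and it was 6.99 without control library 1. Of the counts of both genes Il17f gave between 70.6% and 100% in each library. In control library 2 all 24 counts were from Il17f (exact 95% interval of the share from 85.8%).

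Il22 (chr10:118204942-118210047, plus strand) had 0 counts in the 3 control libraries and 1, 0 and 1 in SPC libraries. Of the 50-base windows of its transcript 41.0% also occur in the near copy Iltifb, which had 2 counts in all, so the gene of such reads is uncertain. Il23r (chr6:67422932-67491855, minus strand) had 1 count in control library 1 and 0 in the other 5 libraries. A floor of 3 counts over a group stands at 0.0369 CPM in control and 0.0366 CPM in SPC libraries. Over the groups Il22 stood at 0 and 0.0244 CPM and Il23r at 0.0123 and 0 CPM, under this floor. Whether the groups differed at levels this low could not be told at this depth.

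Per length, and with exonic lengths from GENCODE M21, the members spread from Tmem176b down to genes at 0. In control libraries Tmem176b stood at 11.5 ± 3.16 RPKM (CPM per kilobase of exon), Ahr at 7.34 ± 0.597, Tmem176a at 4.93 ± 1.33, Rora at 2.49 ± 0.104, Il17f at 0.558 ± 0.417 and Il17a at 0.162 ± 0.217 RPKM. With SPC Tmem176a, at 13.8 ± 3.13 RPKM, stood above Ahr, at 9.04 ± 1.02, and Tmem176b stood at 27.4 ± 6.18, Rora at 4.54 ± 0.654 and Il17f at 0.814 ± 0.633 RPKM. Libraries of neighbours in this order did not overlap from Tmem176b down to Il17f in either group. Il17f and Il17a overlapped in both groups, as did the genes below Il17a in control. Tmem176b was above 65.4% of tested genes in control and 84.1% with SPC, Rora above 31.5% and 42.8%, and Il17f above 14.7% and 17.8%.

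**Figure D4:**
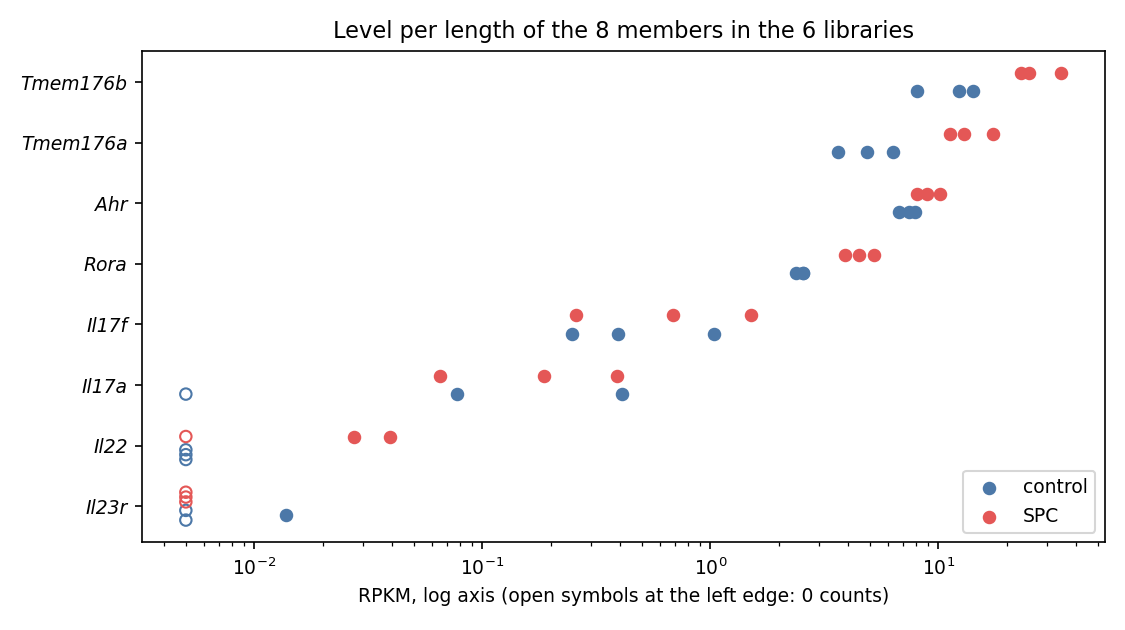
RPKM, CPM per kilobase of exon (horizontal log axis), of the 8 members, a point for each library, blue for control and red for SPC, with libraries at 0 counts as open symbols at the left edge. The groups are apart for Tmem176b, Tmem176a, Ahr and Rora and overlap for Il17f, at 0.558 RPKM on average in control, and for Il17a.

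The 10 lists hold other Th17, cytokine, AHR, ROR and clock genes, the MS4A family and the chromosome 6 neighbours. Of their 131 genes in the files 100 were tested, and 1 was called, higher, against 0.483% of all tested genes. With the block 17 were higher and 16 lower, or 33 of 100, beside 7.08% of all tested genes. The lists were chosen with earlier results of these data known, so these shares describe the listed genes and are no test of a pathway. The median log2 fold change of the 100 was 0.0429. The called gene was Klrb1f, a C-type lectin-like receptor gene, at 0.233 ± 0.00611 and 1.36 ± 0.185 CPM in control and SPC libraries (2.52 ± 0.30, edgeR adjusted p = 0.0164, with the block 0.00109). It had 130 counts over all 6 libraries together.

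The 20 genes listed as Th17 differentiation factors include the signalling genes Socs3 and Sgk1, and mix drivers with genes that hold the program back. Their median log2 fold change was -0.16, with 13 below 0 and none called. With the block 3 were higher and 8 lower, beside 4.02% and 3.07% of all tested genes. Maf, a factor for IL-10 and IL-21 production, had 5.50 ± 0.452 and 10.3 ± 1.92 CPM (0.90 ± 0.16, edgeR adjusted p = 0.0538, with the block 0.000937). Nfil3, a repressor with a role in the clock, had 79.5 ± 18.7 and 42.8 ± 9.06 CPM (-0.89 ± 0.19, edgeR adjusted p = 0.0881, with the block 2.12e-05). Ets1, a factor that holds back Th17 differentiation, had 542 ± 53.9 and 407.0 ± 31.5 CPM (-0.41 ± 0.09, edgeR adjusted p = 0.103, with the block 0.00135). The groups did not overlap for Maf, Nfil3 and Ets1, with Maf higher and Nfil3 and Ets1 lower in 3 of 3 pairs. Stat3, which carries the IL-6 and IL-23 signal, was named after its values were seen and had 358.9 ± 59.7 and 308.9 ± 54.1 CPM (-0.22 ± 0.15, edgeR adjusted p = 0.703, with the block 0.0188).

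Receptor and signalling genes of Th17 differentiation (14 tested, none called) had a median of 0.0843. With the block 3 were higher and 2 lower, beside 4.02% and 3.07% of all tested genes. Tgfbr1, a TGF-beta receptor chain gene, had 113.6 ± 6.10 and 139.4 ± 10.4 CPM (0.30 ± 0.08, edgeR adjusted p = 0.191, with the block 0.00656). Stat5a, which carries the IL-2 signal, had 450.6 ± 17.9 and 549.6 ± 57.8 CPM (0.29 ± 0.09, edgeR adjusted p = 0.244, with the block 0.00849). Il6ra had 54.8 ± 7.19 and 64.9 ± 5.92 CPM (0.24 ± 0.11, edgeR adjusted p = 0.505, with the block 0.0362).

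Of the 12 tested effector and surface genes, Klrb1f included, 5 were higher and 1 lower with the block. Of all tested genes these shares were 4.02% and 3.07%. The median of the 12 was 0.332. Il10, the gene of the anti-inflammatory cytokine, had 3.42 ± 0.477 and 1.43 ± 0.225 CPM (-1.24 ± 0.21, edgeR adjusted p = 0.0514, with the block 0.00389). Ccr6, the chemokine receptor gene of Th17 cells, had 19.4 ± 2.44 and 29.0 ± 5.50 CPM (0.58 ± 0.15, edgeR adjusted p = 0.171, with the block 0.00175). Ccl20, which encodes its ligand and was named after its values were seen, had 2.61 ± 1.30 and 7.03 ± 2.25 CPM (1.41 ± 0.37, edgeR adjusted p = 0.172, with the block 0.00039). Nt5e, which encodes the ectonucleotidase CD73, had 43.2 ± 6.53 and 58.9 ± 4.19 CPM (0.45 ± 0.11, edgeR adjusted p = 0.163, with the block 0.0106). The receptor Ccr6 and its ligand gene Ccl20 were each higher in 3 of 3 pairs.

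Around the cytokine receptors, 4 genes of the IL-17 and IL-17 receptor family were tested and none was called. With the block 1 was higher, beside 4.02% of all tested genes. Il17ra, the shared chain of the IL-17 receptors, had 61.0 ± 2.09 and 75.3 ± 3.67 CPM (0.30 ± 0.07, edgeR adjusted p = 0.130, with the block 0.0116). Il17rb and Il17rd, at 0.335 ± 0.155 and 0.329 ± 0.164 CPM in control and 0.816 ± 0.335 and 0.465 ± 0.155 CPM with SPC, had adjusted p of 0.351 and 0.831 (edgeR). Il17b and Il25 had 0 counts. In the IL-10 and IL-22 receptor family none of 3 tested genes was called. With the block 1 was lower, beside 3.07% of all tested genes. Il10ra had 67.3 ± 27.0 and 45.3 ± 17.6 CPM (-0.57 ± 0.32, edgeR adjusted p = 0.619, with the block 0.000545), Il10rb, also a chain of the IL-22 receptor, 20.1 ± 1.72 and 23.4 ± 1.44 CPM (0.22 ± 0.10, adjusted p = 0.492), and Il24 4.71 ± 2.16 and 3.47 ± 2.08 CPM (-0.45 ± 0.43, adjusted p = 0.817). Il22ra1 and Il22ra2 had 0 counts.

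Il23r pairs with the chain encoded by Il12rb1, and IL-23 itself is made of the products of Il23a and Il12b. Of 6 tested genes of the IL-12 family none was called. With the block 3 were higher and 2 lower, beside 4.02% and 3.07% of all tested genes. The subunit genes Ebi3 and Il12a had 23.3 ± 3.61 and 7.76 ± 2.34 CPM in control and 45.6 ± 10.9 and 15.1 ± 0.735 CPM with SPC (0.97 ± 0.17 and 0.95 ± 0.19, edgeR adjusted p = 0.0557 and 0.0758, with the block 4.04e-05 and 0.00373). Il23a, named after its values were seen, had 0.187 ± 0.104 and 0.878 ± 0.447 CPM (2.19 ± 0.54, edgeR adjusted p = 0.155, with the block 0.0145), and Il12b had 0 counts. Going the other way, Il12rb2, also named after its values were seen, had 17.7 ± 8.15 and 6.83 ± 2.88 CPM (-1.38 ± 0.37, edgeR adjusted p = 0.182, with the block 2.12e-05). Stat4, which carries the IL-12 signal, had 27.9 ± 1.94 and 18.0 ± 3.07 CPM (-0.64 ± 0.13, edgeR adjusted p = 0.0821, with the block 0.00155). Il12rb1, named as the partner of Il23r and not by its p, was measured at 123.8 ± 3.03 and 112.0 ± 4.63 CPM (-0.14 ± 0.07, edgeR adjusted p = 0.521). RNA of the partner chain was thus present while Il23r was under the counting floor.

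**Figure D5:**
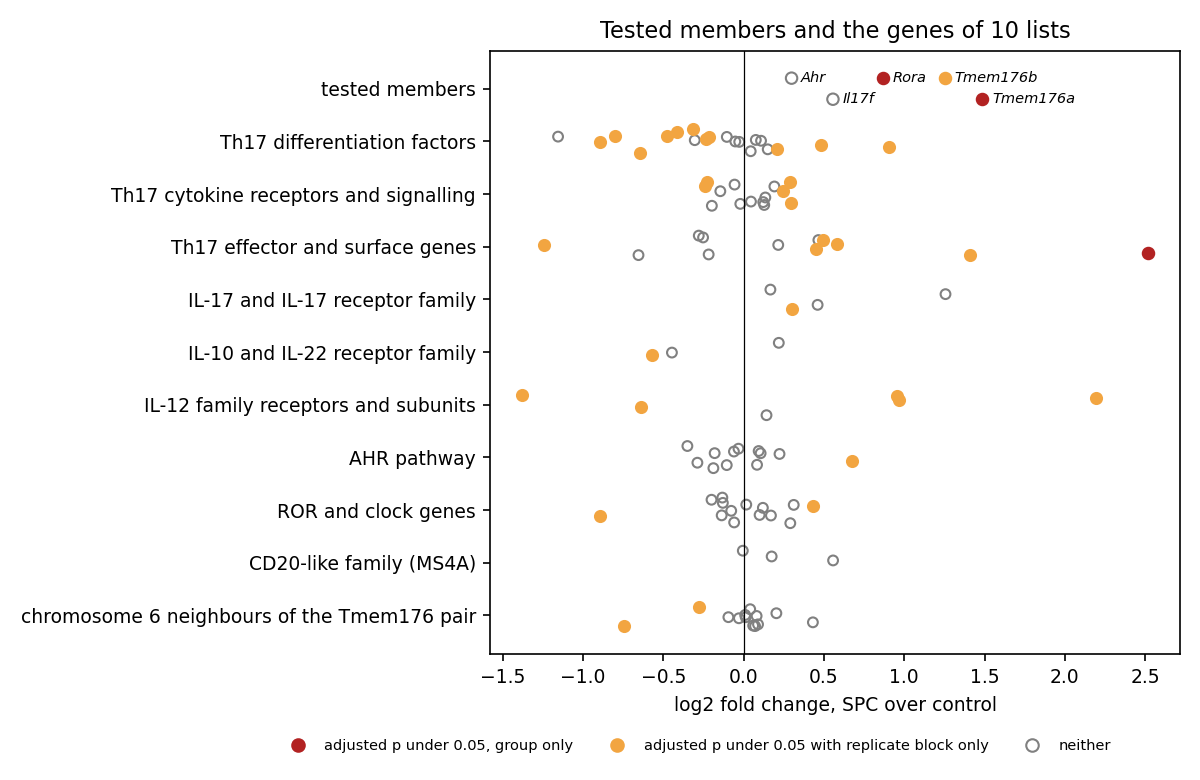
Log2 fold change of SPC over control (horizontal axis) of the 5 tested members and of the tested genes of 10 lists (vertical axis), red where adjusted p is under 0.05 without the block, orange where it is so with the block alone, open otherwise. Members lie between 0.30 and 1.49, and the lists spread to both sides of 0, from -1.38 (Il12rb2) to 2.52 (Klrb1f).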

How the data were processed

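The authors deposited raw read counts per gene symbol, 1 table per library, made from 1.3 µg total RNA with a strand-marking kit, per the labels' protocols. TopHat and mm10 are named in the submitters' processing notes; the TopHat version, counting program, annotation and strand setting were not given in the sources used here. Library totals were 22002050 to 33049997 counts. Counts were tested with edgeR 4.0.16 (R 4.3.3): quasi-likelihood F test, robust dispersions, TMM scaling, filterByExpr (minimum count 10, total 15), group as the sole term, Benjamini-Hochberg adjustment over 12226 genes, threshold 0.05. Log2 fold changes are SPC over control ± SE (fold change divided by the root of F), and CPM are means ± SD of 3 libraries. RPKM divide CPM by GENCODE M21 exonic length (96.0% of tested genes matched). Promoter windows are RefSeq's, found for 7 of 8 members.

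Same-numbered libraries deviated from their group means together (correlations across genes 0.413, 0.208 and 0.508), so the numbers pair the libraries, from 3 independent experiments per the series text. No pair of libraries within a group agreed within counting noise (chi-square per degree of freedom at least 4.82). The group-only fit was tested on simulated libraries without a replicate effect, unlike the libraries here. It recovered 92% of 2-fold and 100% of 4-fold changes and called 11 unchanged genes. The blocked fit was not simulated. Named list genes are every called gene and up to 3 others with the smallest p per list, and correlated genes the 3 with the highest r. Exceptions among tested genes are marked. Members and lists were chosen with earlier results of these data known. Alternatives were RLE scaling, DESeq2 1.42.0, no filter, the replicate block and leaving out each library or number.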

Additional observations from a re-analysis of the deposited data

How the results depend on the processing

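The number of called genes was 59 with edgeR as reported, 282 with DESeq2, 147 with no filter on low counts and 866 with the replicate block, and lay between 0 and 66 when a library or number was left out. Leaving out both libraries numbered 2 gave the count of 0 in edgeR, with 502 genes at an unadjusted p under 0.05. Of the 8 members 2 were called, 1 with no filter, and between 0 and 3 when a library or number was left out. Of the other listed genes 1 was called, 13 with DESeq2, 6 with no filter, 33 with the replicate block and between 0 and 2 when a library or number was left out. The log2 fold change of Tmem176b was 1.25 as reported, without a call, and was called at 1.25 with DESeq2 (adjusted p = 2.73e-07) at 1.26 with the replicate block and at 1.17 without both libraries numbered 3 (0.0463). Tmem176a lost its call with no filter (1.49, adjusted p = 0.0627). Left-out libraries gave log2 fold changes of 0.75 to 0.96 for Rora, 1.29 to 1.71 for Tmem176a, 1.05 to 1.44 for Tmem176b, 0.21 to 0.43 for Ahr, and -0.26 (without SPC library 1) to 1.36 for Il17f. The ratio for Il17a ran from 0.725 to 6.99 and the Tmem176 ratio from 0.169 to 0.268, where the block gave 0.231. The replicate block changed no other call of a member. RLE scaling changed no call of a member. The causes were not tested. Depth limits Il17a, Il22 and Il23r, where 1 count is a large part of the level.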

Other observations

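Genes whose log2 CPM followed a member most closely over the 6 libraries were looked up among 11108 genes of at least 1 CPM. The libraries share group and number differences, and with 6 points many genes reach a high r, so these values are a description. For Tmem176b the highest Pearson r was 0.998 with Sardh, a sarcosine dehydrogenase gene, then 0.997 with Elp5 and 0.994 with Sh3bp4. For Tmem176a it was 0.994 with Inpp5k, 0.994 with Prps1 and 0.993 with Tmem176b, while 284 genes exceeded 0.9. For Rora it was 0.999 with Plekha1, 0.996 with Fam72a and 0.996 with Prkd2, and for Ahr 0.998 with Ankrd32, 0.989 with Zfp40 and 0.981 with Fam168b. For Il17f it was 0.994 with D17H6S56E-5, 0.991 with Coa7 and 0.991 with Med6, and 576 genes exceeded 0.9. Of the genes named here that are no members, Fam72a was called (means of 11.0 and 18.7 CPM in control and SPC libraries, log2 fold change 0.76, edgeR adjusted p = 0.0358).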
